A study of Mus musculus with 18 samples.

Results

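CD8+ T cells called iRTE in the sample labels (5 libraries) were compared with CD8+ T cells made on a stromal layer (5 libraries, OP9 CD8 below) by RNA sequencing. These were 10 of the 18 mouse libraries of the study. The other 8 were 3 libraries of CD4+CD8+ cells and 5 of naive splenic CD8+ cells of transgenic mice. The libraries were chosen by their titles alone, and every gene was compared as iRTE over OP9 CD8. Both groups came from induced pluripotent stem cells, called Pmel iPSC by the labels, were untreated, and were sorted by flow cytometry on CD45, CD4, CD8 and the T-cell receptor (TCR). The design text adds a dump gate against NK1.1, the gamma-delta TCR and CD11c. Each growth protocol, that of iRTE included, names OP9-DL1, a mouse stromal line that carries the Notch ligand Delta-like 1. The design text also describes a 3-dimensional thymic culture, and iRTE falls to it only by elimination. The labels give no clone, passage, sex or age of the stem cells, and do not say that libraries of 1 group came from separate cultures, so that p-values reflect the spread of these samples alone, which may be technical.

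In the thymus, a CD4+CD8+ cell first rearranges its TCR genes with the RAG recombinase. A weak signal from self peptide on MHC class I then spares the cell from death and turns it toward the CD8 lineage. The selected cell switches off RAG and the CD4+CD8+ programme and acquires interferon-responsive genes, MHC class I, and the receptors that lead it out of the thymus. Once exported it is called a recent thymic emigrant; the labels do not spell out iRTE. On OP9-DL1 the Notch ligand drives stem cells to the CD4+CD8+ stage, but the layer has no thymic epithelium. The pmel-1 TCR, for which the stem cells are named, is a transgenic receptor for the melanocyte protein gp100.

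Promoters of 6 genes to which the results return are shown with the motifs found in them, 5′ to 3′ along the gene's own strand, from 250 bases before to 50 bases after the start in RefSeq (GRCm38.p6). Capitals mark the match, on either strand. The interferon-stimulated response element, searched as GAAANNGAA, is shown in 3 promoters. Ifit1 (chr19:34640639-34640938, gene on the + strand) holds it at 109, 103 and 84 bases before the start, read from the opposite strand, with an overlap between the first and the second. Igtp (chr11:58199306-58199605, + strand) holds it at 34 bases and B2m (chr2:122147437-122147736, + strand) at 139 bases before the start.
Ifit1: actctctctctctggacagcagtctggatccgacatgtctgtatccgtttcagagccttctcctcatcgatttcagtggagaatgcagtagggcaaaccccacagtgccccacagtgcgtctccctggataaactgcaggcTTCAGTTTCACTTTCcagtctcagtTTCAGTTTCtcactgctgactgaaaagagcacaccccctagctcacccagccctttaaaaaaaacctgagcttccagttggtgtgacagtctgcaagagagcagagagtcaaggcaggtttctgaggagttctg
Igtp: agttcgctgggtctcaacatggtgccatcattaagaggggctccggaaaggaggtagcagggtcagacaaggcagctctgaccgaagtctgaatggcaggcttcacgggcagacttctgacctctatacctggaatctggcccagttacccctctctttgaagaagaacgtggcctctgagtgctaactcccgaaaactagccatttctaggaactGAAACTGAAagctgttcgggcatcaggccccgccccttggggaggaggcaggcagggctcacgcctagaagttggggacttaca
B2m: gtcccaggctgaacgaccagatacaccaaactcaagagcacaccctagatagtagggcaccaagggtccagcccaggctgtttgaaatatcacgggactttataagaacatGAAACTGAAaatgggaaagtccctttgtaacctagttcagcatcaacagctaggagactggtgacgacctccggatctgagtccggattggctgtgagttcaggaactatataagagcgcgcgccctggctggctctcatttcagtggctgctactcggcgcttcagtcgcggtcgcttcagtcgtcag
The amino acid response element, searched as TGATGNAA, is shown in Asns (chr6:7693160-7693459, gene on the - strand), at 23 bases before the start, and in Chac1 (chr2:119350992-119351291, + strand), at 193 bases before the start and read from the opposite strand. A kappaB motif, searched as GGGANNTTC, is shown in Nfkbia (chr12:55492598-55492897, - strand), at 113 bases before the start and, read from the opposite strand, at 28 bases before it. The letters of the first and the third motif were shortened after matches to longer forms had been seen.
Asns: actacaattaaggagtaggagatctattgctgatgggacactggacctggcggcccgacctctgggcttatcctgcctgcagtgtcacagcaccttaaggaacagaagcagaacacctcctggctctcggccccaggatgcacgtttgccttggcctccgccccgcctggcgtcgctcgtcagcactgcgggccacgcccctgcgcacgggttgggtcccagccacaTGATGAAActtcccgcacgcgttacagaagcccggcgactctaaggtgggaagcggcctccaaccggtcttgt
Chac1: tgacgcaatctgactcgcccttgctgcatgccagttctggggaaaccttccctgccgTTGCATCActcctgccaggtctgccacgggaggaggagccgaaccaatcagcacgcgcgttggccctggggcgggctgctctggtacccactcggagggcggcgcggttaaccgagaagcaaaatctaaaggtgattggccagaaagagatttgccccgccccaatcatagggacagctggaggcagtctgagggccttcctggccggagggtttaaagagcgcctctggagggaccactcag
Nfkbia: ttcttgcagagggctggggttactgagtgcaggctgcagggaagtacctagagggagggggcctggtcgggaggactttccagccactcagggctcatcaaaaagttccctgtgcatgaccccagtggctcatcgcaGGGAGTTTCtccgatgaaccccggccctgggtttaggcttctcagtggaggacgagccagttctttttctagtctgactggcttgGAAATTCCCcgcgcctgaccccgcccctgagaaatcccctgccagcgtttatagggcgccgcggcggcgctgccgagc
These matches describe letters in a window, not binding. The gene groups they belong to moved in both directions: interferon-responsive and NF-kB genes were mostly higher in iRTE, and amino acid response genes mostly lower.

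Libraries held 11691286 to 16533373 counts in iRTE and 15953388 to 19305751 counts in OP9 CD8. Values below are CPM (counts per 1000000 counts of the library, on sizes scaled by TMM), with ± SD over 5 libraries a group. A log2 fold change is the fitted value, with ± SE from the spread of log2 CPM. The iRTE libraries varied more: the median SD of a gene's log2 CPM was 0.475 in iRTE and 0.214 in OP9 CD8. The descriptions of iRTE 1 to 3 and of iRTE 4 and 5 follow different naming styles, and the share of counts on mitochondrial genes ran from 1.76% to 2.17% in iRTE 1 to 3, stood at 0.903% in iRTE 4 and 0.868% in iRTE 5, and ran from 1.40% to 1.91% in OP9 CD8. Where 1 of these 2 sets of iRTE libraries alone ended or gave a gene's call, its value with that set is given beside the gene. Itgb1, Ets1, Socs2 and Uhrf1 were not among the genes checked in this way. Whether the sets mark a batch was not tested.

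Both groups carried the transcripts of CD8+ T cells. Cd8b1, the beta chain of the CD8 co-receptor, stood at 2671, 2256, 1982, 3301 and 2510.1 CPM in iRTE 1 to 5, against 818, 883, 1062, 893 and 942 CPM in OP9 CD8 1 to 5. Every iRTE library lay above every OP9 CD8 library. Cd8a, the alpha chain, had 1349.8, 1384, 1261, 456 and 1338 CPM in iRTE 1 to 5, against 569, 566, 584, 562 and 643 CPM in OP9 CD8 1 to 5, and iRTE 4 was the 1 iRTE library below the OP9 CD8 range. It rose by 0.99 ± 0.31 on the log2 scale, and with iRTE 4 and 5 alone in place of all 5 it did not pass (0.61). Cd4 was at 0 counts in all 5 iRTE libraries, against a mean of 4.41 ± 2.85 CPM in OP9 CD8, which is at least 15.4-fold lower in iRTE against the highest floor of 3 counts in an iRTE library. Cd3d, Cd3e and Cd3g, the signalling chains beside the TCR, changed by 0.52 ± 0.12, 0.57 ± 0.22 and 0.63 ± 0.09 on the log2 scale, and with iRTE 4 and 5 alone in place of all 5 neither Cd3d (log2 fold change 0.26) nor Cd3e (-0.02) passed.

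Marker lists of other cell types gave low sums, except where 1 or a few genes carried them. Of 8 stromal genes tested, 2 were lower and 0 higher in iRTE, and the list of 16 summed to 3.89 to 10.6 CPM in iRTE and 22.4 to 33.4 CPM in OP9 CD8. The one with the most counts, Pdgfrb, a growth factor receptor of mesenchymal cells, averaged 2.25 ± 1.23 CPM in iRTE, against 18.5 ± 3.45 CPM in OP9 CD8, and 5 of the 16, Pdgfra and Dcn among them, had no count in any of the 10 libraries. Thymic epithelial genes, a list led by Ly75, summed to 91.2 to 318 CPM in iRTE and 177 to 239 CPM in OP9 CD8, with 3 of 5 lower in iRTE, among them Epcam (-3.04 ± 0.66 on the log2 scale), and Foxn1 and Krt14 had no count in the 10 libraries. Myeloid genes summed to 0.442 to 6.97 CPM in iRTE and 1.96 to 8.34 CPM in OP9 CD8. MHC class II and dendritic genes summed to 1.43 to 9.58 CPM in iRTE and 0.618 to 2.53 CPM in OP9 CD8. Helper and regulatory CD4 genes, a list led by Il2ra, Ikzf2 and Ctla4, summed to 288 to 510 CPM in iRTE and 853 to 1001 CPM in OP9 CD8, and 4 of 8 were lower and 2 higher. Foxp3, the regulatory T-cell factor, averaged 1.71 ± 1.23 CPM in iRTE, against 28.8 ± 1.82 CPM in OP9 CD8. B-lineage genes were carried by Ighm, the IgM heavy chain gene, at 1442 ± 159 CPM in iRTE, against 835 ± 52.2 CPM in OP9 CD8, while Pax5 and Ms4a1 had no count. Erythroid genes were carried by Gata1, a red-cell transcription factor, at 67.7 ± 10.3 CPM in iRTE, against 36.8 ± 4.13 CPM in OP9 CD8. NK genes summed to 24.7 to 91.3 CPM in iRTE and 62.2 to 105 CPM in OP9 CD8. Whether such cells contributed to the differences below was not tested. In RNA from a whole sorted sample, fewer cells of a type and less RNA per cell cannot be told apart.

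In iRTE, 2788 of 13922 genes tested (20.0%) were higher and 2598 (18.7%) were lower by edgeR's quasi-likelihood test at an adjusted p under 0.05. At least 2-fold changes made up 934 of the rises (6.71% of genes tested) and 1443 of the falls (10.4%). The libraries of the groups did not overlap at 23.6% of genes, with iRTE above at 1527 and below at 1753. The median log2 fold change over all genes was 0.006. The gene lists below were chosen with earlier results of these data known, so no list was tested. The counts of each list are to be read against these background shares of 20.0% higher and 18.7% lower.

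**Figure D1:**
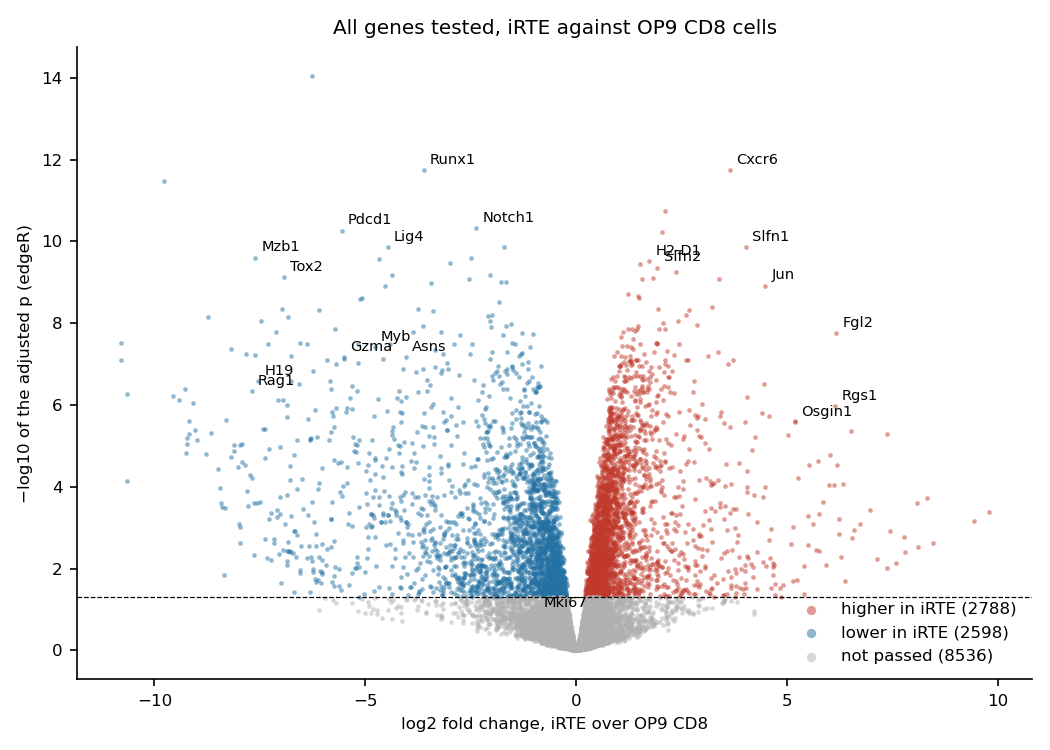
Each point is 1 of 13922 genes, by log2 fold change of iRTE over OP9 CD8 (x axis) and −log10 of the edgeR adjusted p (y axis), with the 0.05 threshold dashed. Falls reached larger sizes than rises, with Rag1 at -7.70 on the left and Fgl2 at 6.16 on the right, and genes with no count in 1 group have fitted values that are not bounds.

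**Figure D2:**
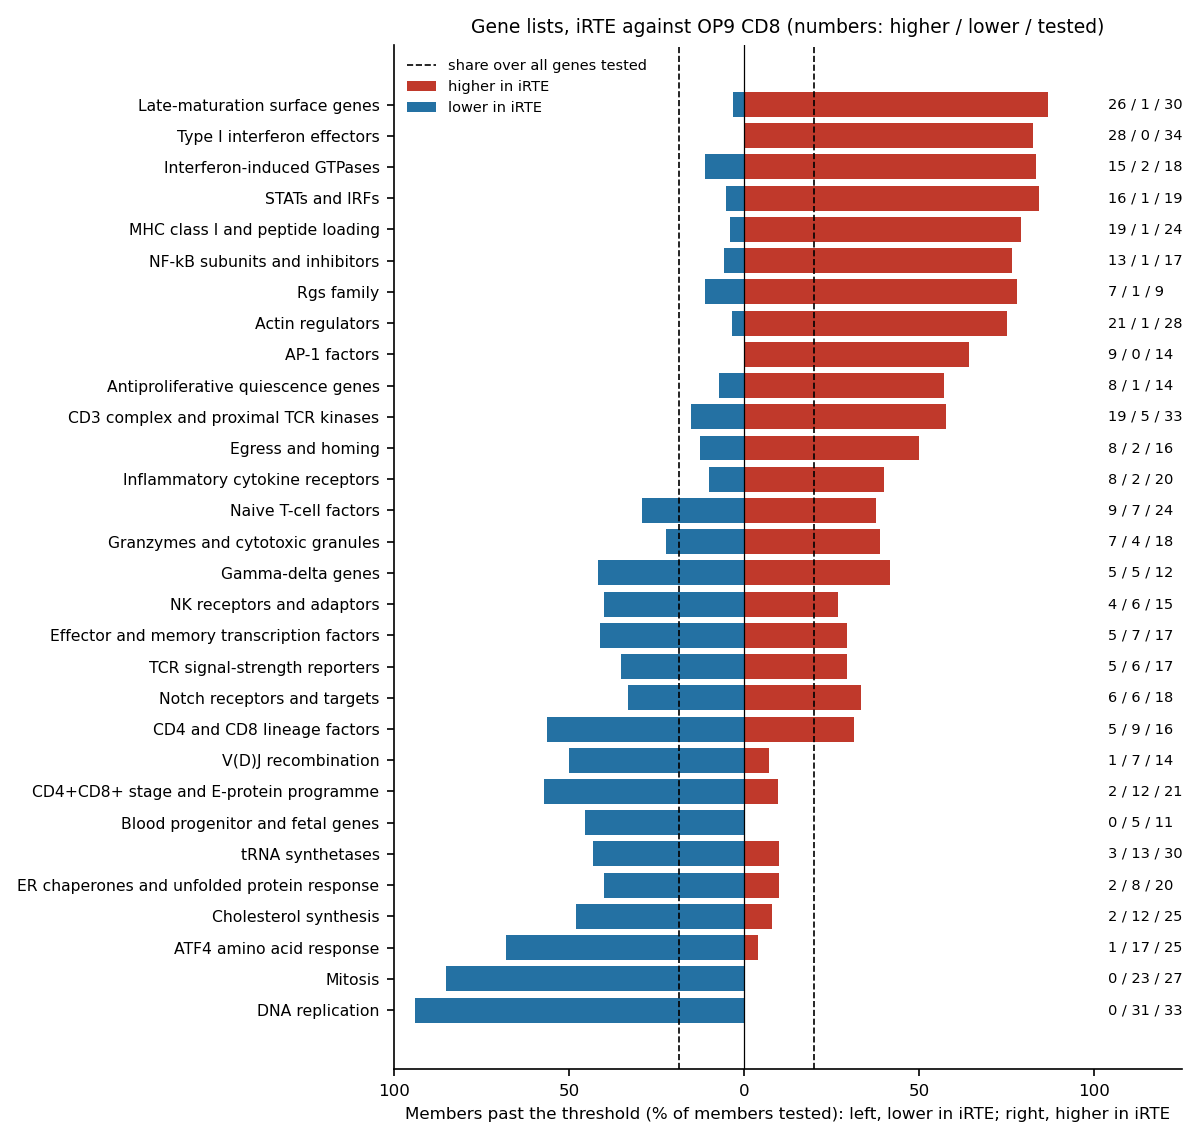
Bars give, for each of 30 gene lists, the share of tested members that passed the threshold in iRTE over OP9 CD8 (right, higher; left, lower), with the share over all genes tested dashed (20.0% higher, 18.7% lower). Interferon, MHC class I and late-maturation lists extend to the right and replication, mitosis and amino acid response lists to the left.

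The same TCR beta segment led both groups. Trbv14, a beta variable segment, took 98.0%, 97.7%, 97.6%, 96.5% and 97.6% of Trbv counts in iRTE 1 to 5, against 97.5% to 97.8% in OP9 CD8. Counts on alpha variable segments were low, at 42.8 to 151 CPM in iRTE and 67.6 to 75.9 CPM in OP9 CD8, while Trbv counts reached 5293 to 8595 CPM in iRTE and 7068 to 7757 CPM in OP9 CD8. The most counted Trav segment took 17.6%, 63.1%, 76.1%, 17.6% and 25.2% of Trav counts in iRTE 1 to 5, against 19.1%, 22.9%, 21.4%, 17.6% and 21.2% in OP9 CD8 1 to 5. Those shares rested on 535 to 1705 Trav counts per library in iRTE and 1105 to 1457 in OP9 CD8, and their Wilson 95% intervals, which cover counting error only, were 60.1% to 66.1% in iRTE 2 and 74.0% to 78.0% in iRTE 3. The segment was Trav21-dv12 in iRTE 2, iRTE 3 and iRTE 4, Trav17 in iRTE 1 and in all 5 OP9 CD8 libraries, and Trav13-4-dv7 in iRTE 5. Trav21-dv12 alone ranged from 0.403% to 76.1% of Trav counts over iRTE and from 10.9% to 16.4% over OP9 CD8. The mean top share was 39.9 ± 27.7% in iRTE and 20.5 ± 2.1% in OP9 CD8, and the difference was within the spread of the libraries (exact two-sided permutation p = 0.246, where 5 against 5 can reach 0.00794). Counts on alpha joining segments were 11.1 to 25.3 CPM in iRTE and 23.2 to 39.3 CPM in OP9 CD8. Reads of near-identical variable segments can be split between copies, so single Trav shares are uncertain.

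**Figure D3:**
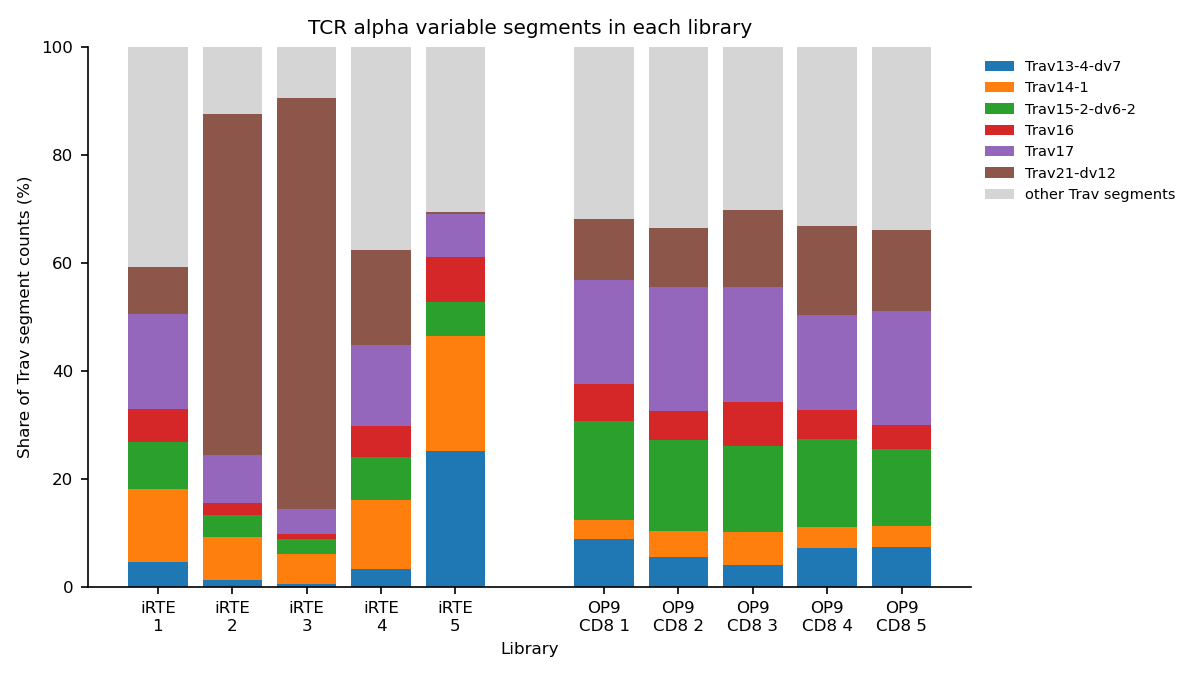
Stacked bars give the share of Trav counts (y axis, %) held by 6 alpha variable segments in iRTE 1 to 5 (left) and OP9 CD8 1 to 5 (right), with all other segments in grey. Trav21-dv12 fills 63.1% of iRTE 2 and 76.1% of iRTE 3, and the 5 OP9 CD8 bars are alike.

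Recombination genes were lower in iRTE. Of 14 tested, 7 fell and 1 rose, and their summed level was 919 to 1443 CPM in iRTE and 2588 to 3070 CPM in OP9 CD8. The sum was led by the chromatin protein genes Hmgb1 and Hmgb2, both among the falls. They averaged 467 ± 100 and 448 ± 138 CPM in iRTE, against 794 ± 59.2 and 1131 ± 120 CPM in OP9 CD8. Xrcc5, Prkdc, Dclre1c, Xrcc4, Nhej1 and Poll did not pass. Rag1, the catalytic subunit of the recombinase, had 0, 0, 0.0884, 0 and 3.07 CPM in iRTE 1 to 5, against 160.4, 148, 169, 149.6 and 136 CPM in OP9 CD8 1 to 5. Only iRTE 5 held more than a trace, and without it the log2 fold change was -12.36 in place of -7.70, fitted values that at so few counts are no bound. Its partner Rag2 had 0, 0, 0, 0.747 and 1.21 CPM in iRTE 1 to 5, against 61.4, 54.7, 56.7, 54.4 and 67.9 CPM in OP9 CD8 1 to 5, again at a trace in iRTE 4 and iRTE 5 only. Lig4, the DNA ligase that seals the joints, had 3.16, 5.41, 2.92, 3.67 and 3.005 CPM in iRTE 1 to 5, against 84.2, 70.9, 90.6, 78.8 and 78.1 CPM in OP9 CD8 1 to 5, and here the 5 iRTE libraries were alike (log2 fold change -4.47 ± 0.17). Dntt, which adds bases at the joints, changed by -3.62 ± 0.64, and Xrcc6, the Ku70 end-binding protein, by -1.32 ± 0.13 on the log2 scale. The 1 rise was Polm, a polymerase of end joining, at 27.7 ± 2.90 CPM in iRTE, against 15.4 ± 3.71 CPM in OP9 CD8.

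The CD4+CD8+ programme fell with them. Of 21 genes of that stage, 12 fell and 2 rose. Aqp11, a water channel, had 0.0958, 0.798, 0.442, 1.81 and 3.39 CPM in iRTE 1 to 5, against 111, 90.4, 92.2, 93.8 and 98.7 CPM in OP9 CD8 1 to 5. The iRTE libraries stood below 4 CPM (edgeR adjusted p = 4.77e-09). Arpp21, an RNA-binding protein of this stage, had 1.63, 2.22, 4.33, 20.1 and 22.8 CPM in iRTE 1 to 5, against 229, 224, 207, 234 and 172 CPM in OP9 CD8 1 to 5, and was higher in iRTE 4 and iRTE 5 than in iRTE 1 to 3. Cd24a, a surface protein lost as thymocytes mature, had 1.63, 10.6, 4.78, 37.8 and 17.3 CPM in iRTE 1 to 5, against 414, 397, 359, 366 and 373 CPM in OP9 CD8 1 to 5, with iRTE 4 the highest of its group. Bcl2l1, the survival protein Bcl-xL, averaged 39.2 ± 8.03 CPM in iRTE, against 93.1 ± 7.57 CPM in OP9 CD8. Among the 2 rises was Cd38, an enzyme that consumes NAD, at 50.7, 26.7, 8.84, 2.37 and 5.43 CPM in iRTE 1 to 5, against 1.10, 0.370, 0.237, 1.78 and 0.670 CPM in OP9 CD8 1 to 5. The CD4+CD8+ libraries of the study averaged 219 ± 17.0 CPM for Arpp21 and 131 ± 17.3 CPM for Cd24a.

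Of 18 Notch pathway genes, 6 were higher and 6 lower. Notch1, the receptor that OP9-DL1 engages, had 101, 99.5, 132, 97.1 and 87.4 CPM in iRTE 1 to 5, against 563, 456, 584, 535 and 527 CPM in OP9 CD8 1 to 5 (log2 fold change -2.37 ± 0.12, edgeR adjusted p = 4.65e-11). The groups were apart by a wide gap. Notch3, its target and relative, averaged 7.56 ± 4.52 CPM in iRTE, against 88.8 ± 12.2 CPM in OP9 CD8. The Notch targets Dtx1, Hes1 and Il2ra, the high-affinity IL-2 receptor chain, changed by -1.62 ± 0.54, -1.33 ± 0.31 and -2.50 ± 0.60 on the log2 scale. Il2ra stood at 54.1, 130.4, 182, 16.6 and 88.2 CPM in iRTE 1 to 5, against 585, 559.9, 526, 499 and 499 CPM in OP9 CD8 1 to 5, and iRTE 4 was the lowest library. Maml2, a Notch co-activator, and Lfng, which glycosylates Notch, rose by 1.36 ± 0.29 and 0.95 ± 0.22 on the log2 scale. Myc, also a Notch target, rose by 0.87 ± 0.28, with iRTE 5 at 824 CPM and the other iRTE libraries at 296 to 342 CPM, and by 0.48 on the log2 scale without iRTE 5.

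Of 16 factors of the CD4 and CD8 choice, 5 were higher and 9 lower. Runx3, which silences Cd4 in CD8 cells, had 142, 124, 164, 149 and 151 CPM in iRTE 1 to 5, against 88.5, 83.5, 103, 79.6 and 86.0 CPM in OP9 CD8 1 to 5. Runx1, its relative with early roles, had 6.22, 7.54, 9.73, 10.1 and 10.5 CPM in iRTE 1 to 5, against 120.5, 109, 103, 113 and 99.1 CPM in OP9 CD8 1 to 5 (edgeR adjusted p = 1.81e-12). The 2 factors therefore moved in opposite directions with no overlap in either. Myb, a factor of CD4+CD8+ cells, changed by -4.78 ± 0.52, Gata3 by -0.89 ± 0.08, Tox by -1.70 ± 0.07 and Tcf7, which encodes TCF-1, by -0.46 ± 0.09 on the log2 scale. Socs1, an inhibitor of cytokine signals, and Zbtb7a, a relative of the CD4 factor ThPOK, rose by 1.11 ± 0.22 and 0.92 ± 0.12 on the log2 scale. Genes of blood progenitors and of fetal cells fell at 5 of 11 and rose at 0. Sox4 had 1.82, 9.32, 11.9, 10.96 and 14.5 CPM in iRTE 1 to 5, against 98.5, 98.7, 105, 96.7 and 97.2 CPM in OP9 CD8 1 to 5, and the architectural protein gene Hmga1 and the RNA-binding Igf2bp3 changed by -1.52 ± 0.16 and -1.67 ± 0.42 on the log2 scale.

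Of 16 egress and homing genes, 8 rose and 2 fell. The egress receptor S1pr1 had 967, 1019, 837, 1602 and 567 CPM in iRTE 1 to 5, against 465, 491, 587, 507 and 507 CPM in OP9 CD8 1 to 5, where iRTE 4 was highest and iRTE 5 lay within the OP9 CD8 range. S1pr4, another receptor for the same lipid, rose without overlap (79.9 ± 11.6 CPM in iRTE, against 38.7 ± 4.10 CPM in OP9 CD8). Klf2, the factor that drives S1pr1, rose by 0.75 ± 0.27 on the log2 scale, and Ccr7, the lymph node receptor, had 571, 562, 655, 998 and 661 CPM in iRTE 1 to 5, against 359, 423, 427, 389.9 and 386 CPM in OP9 CD8 1 to 5. Cd69, an activation protein that holds cells back from egress, had 108, 83.6, 44.0, 27.8 and 1286 CPM in iRTE 1 to 5, against 24.4, 16.7, 17.9, 17.1 and 16.5 CPM in OP9 CD8 1 to 5. The iRTE 5 library stood far above the rest, and without it the log2 fold change was 1.83 in place of 4.07.

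Of 12 chemokine receptors, 3 were higher and 3 lower, against 20.0% and 18.7% of all genes tested. Cxcr6, a receptor of tissue-resident and innate-like T cells, had 479, 482, 394, 324 and 285 CPM in iRTE 1 to 5, against 30.2, 31.3, 29.5, 31.8 and 34.6 CPM in OP9 CD8 1 to 5 (log2 fold change 3.64 ± 0.16, edgeR adjusted p = 1.81e-12). Ccr9, the thymus and gut receptor, had 584, 594, 688, 860.4 and 830.3 CPM in iRTE 1 to 5, against 276, 278, 315, 269.8 and 269 CPM in OP9 CD8 1 to 5. Both were clear of the OP9 CD8 range in every iRTE library. Cxcr4, the receptor for Cxcl12 that holds early thymocytes in the cortex, averaged 8.39 ± 7.57 CPM in iRTE, against 72.3 ± 2.85 CPM in OP9 CD8, and Cxcr5, the follicle receptor, 3.96 ± 2.10 CPM in iRTE, against 57.1 ± 4.37 CPM in OP9 CD8. Integrins rose at 5 of 15 and fell at 2. Rises numbered 3 in the fit of the 2 groups alone, with no expression filter and under the replicate block. They also numbered 3 without OP9 CD8 1, 2 or 4. Itgae (CD103) averaged 1226 ± 421 CPM in iRTE, against 375 ± 29.4 CPM in OP9 CD8. Its partner Itgb7, with which it binds E-cadherin, averaged 2235 ± 452 CPM in iRTE, against 1131 ± 74.3 CPM in OP9 CD8. Itgae was lowest in iRTE 4 and iRTE 5 (989 and 595 CPM) and still above every OP9 CD8 library. Itgb1 fell by 0.89 on the log2 scale.

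Actin regulators rose at 21 of 28 and fell at 1. Tmsb4x, which encodes the actin-binding peptide thymosin beta 4, showed the largest rise of any gene in CPM, with 8991, 8339, 12613, 6414 and 7667 CPM in iRTE 1 to 5, against 2739, 2892, 2902, 2905 and 3162 CPM in OP9 CD8 1 to 5. Tmsb10 averaged 489 ± 179 CPM in iRTE, against 141 ± 17.6 CPM in OP9 CD8. Rac2, a GTPase of blood cells, Myo1f, a myosin, and Coro1a, which survival of naive T cells requires, rose by 0.84 ± 0.13, 1.32 ± 0.09 and 0.56 ± 0.10 on the log2 scale. The 1 fall was Ezr, the membrane linker ezrin, at 389 ± 47.2 CPM in iRTE, against 696 ± 34.3 CPM in OP9 CD8.

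Genes of late maturation, not all of them for surface proteins, were higher in iRTE at 26 of 30 and lower at 1. The shares over all genes were 20.0% and 18.7%, and the median log2 fold change of the list was 1.40. Ly6a (Sca-1) had 845, 594, 644, 187 and 846 CPM in iRTE 1 to 5, against 89.6, 92.6, 78.7, 97.1 and 97.8 CPM in OP9 CD8 1 to 5, and iRTE 4 was lowest. Nt5e (CD73), an enzyme that makes adenosine, had 232, 233, 146, 315 and 203 CPM in iRTE 1 to 5, against 31.6, 37.0, 43.2, 32.5 and 33.2 CPM in OP9 CD8 1 to 5. Slfn1, a Schlafen gene that restrains T-cell growth, averaged 59.8 ± 16.8 CPM in iRTE, against 3.65 ± 0.902 CPM in OP9 CD8. H2-Q7, the Qa-2 antigen gained by emigrants, had 349, 273, 309.6, 95.9 and 224 CPM in iRTE 1 to 5, against 44.3, 51.8, 45.7, 46.0 and 61.1 CPM in OP9 CD8 1 to 5, and its near-identical neighbour H2-Q6 changed by 4.40 ± 0.71 on the log2 scale. Reads of such copies can be assigned to either. Gimap7 and Gimap3, GTPases of lymphocyte survival, rose by 2.81 ± 0.48 and 1.56 ± 0.11 on the log2 scale. Splenic naive cells averaged 1243 ± 21.97 CPM for H2-Q7, 378 ± 25.7 for Slfn1 and 1041 ± 14.6 for Gimap3, above both groups, and 134 ± 5.68 CPM for Ly6a, below the iRTE mean. The 1 fall was St8sia1, a sialyltransferase, at 20.6 ± 6.84 CPM in iRTE, against 34.3 ± 6.74 CPM in OP9 CD8.

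Naive T-cell factors did not move one way, with 9 of 24 higher and 7 lower. Bach2, a repressor of effector genes, had 53.1, 65.6, 90.6, 86.6 and 53.8 CPM in iRTE 1 to 5, against 19.04, 19.4, 25.3, 24.7 and 15.9 CPM in OP9 CD8 1 to 5, above the OP9 CD8 range in all 5 iRTE libraries. Actn1, an actin cross-linker of naive cells, rose by 0.79 ± 0.13 on the log2 scale. Ets1, a factor of mature T cells, fell by 0.70 on the log2 scale. Receptors of the common gamma chain family rose at 5 of 13 and fell at 4. Il2rg, the shared chain, had 1099, 983, 1006, 808 and 878 CPM in iRTE 1 to 5, against 440.0, 484, 465, 485 and 506 CPM in OP9 CD8 1 to 5, and Il4ra, the IL-4 receptor chain, averaged 391 ± 73.1 CPM in iRTE, against 139 ± 24.6 CPM in OP9 CD8. Il7r, the receptor for the survival cytokine IL-7, had 286, 336, 281, 256 and 124.8 CPM in iRTE 1 to 5, against 139, 130.2, 136, 118 and 90.7 CPM in OP9 CD8 1 to 5, where iRTE 5 overlapped OP9 CD8. Il2rb, shared by IL-2 and IL-15 receptors, fell, with 284 ± 83.7 CPM in iRTE, against 510.5 ± 38.0 CPM in OP9 CD8. Il9r, the IL-9 receptor, changed by -2.68 ± 0.42 on the log2 scale. Among STAT5 targets, 4 of 16 rose and 2 fell, against 20.0% and 18.7% of all genes tested. Cish, a STAT5-induced inhibitor, averaged 118 ± 54.7 CPM in iRTE, against 26.8 ± 5.31 CPM in OP9 CD8. Pim2, a STAT5-induced survival kinase, averaged 1285 ± 763 CPM in iRTE, against 344 ± 44.0 CPM in OP9 CD8. Socs2 fell by 0.79 on the log2 scale. Inflammatory cytokine receptors rose at 8 of 20 and fell at 2, with Ifngr2 and Tnfrsf1b, chains of the interferon gamma and TNF receptors, higher by 1.36 ± 0.29 and 1.22 ± 0.23 on the log2 scale.

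Of 18 cytotoxic granule genes, 7 rose and 4 fell. Gzma, which encodes granzyme A, had 5.55, 24.0, 22.02, 4.73 and 46.7 CPM in iRTE 1 to 5, against 1042, 944, 848, 968 and 933 CPM in OP9 CD8 1 to 5. It showed the largest fall of any gene in CPM, and its groups differed without overlap (log2 fold change -5.52 ± 0.64, edgeR adjusted p = 6.63e-08). Gzmb had 92.9, 121, 124, 6.85 and 226 CPM in iRTE 1 to 5, against 46.2, 63.2, 35.7, 54.3 and 61.0 CPM in OP9 CD8 1 to 5 and did not pass (edgeR adjusted p = 0.0588), with iRTE 4 far below its group. Without iRTE 4 it was called higher (log2 fold change 1.44), as it was with iRTE 1 to 3 alone in place of all 5 (1.11). Ctsw and Ctsc, cathepsins of cytotoxic granules, and Srgn, the proteoglycan that packs them, rose by 2.17 ± 0.27, 1.31 ± 0.21 and 1.28 ± 0.19 on the log2 scale. Rab27a, a GTPase that docks granules, averaged 33.7 ± 6.57 CPM in iRTE, against 128 ± 12.5 CPM in OP9 CD8. Among effector cytokines, 6 of 13 rose and 2 fell. Rises numbered 3 in the fit of the 2 groups alone and at a mean of at least 10 CPM. Ltb, a lymphotoxin chain, averaged 1031 ± 179.9 CPM in iRTE, against 345 ± 30.5 CPM in OP9 CD8, and its partner Lta averaged 44.0 ± 18.9 CPM in iRTE, against 11.7 ± 1.98 CPM in OP9 CD8. The chemokine Ccl5 averaged 97.7 ± 40.9 CPM in iRTE, against 362 ± 34.0 CPM in OP9 CD8. Xcl1, a chemokine that attracts cross-presenting dendritic cells, had 18.9, 15.5, 5.31, 0.249 and 0.384 CPM in iRTE 1 to 5, against 0.122, 0, 0, 0 and 1.44 CPM in OP9 CD8 1 to 5, so its rise came from iRTE 1 to 3. With iRTE 4 and 5 alone in place of all 5 its log2 fold change was -0.03, and without OP9 CD8 5 it was 7.73 in place of 4.60.

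Effector and memory factors fell at 7 of 17 and rose at 5. In the fit of the 2 groups alone, 3 fell. Eomes, a T-box factor of memory and innate-like CD8 cells, had 31.5, 14.99, 5.31, 12.6 and 4.28 CPM in iRTE 1 to 5, against 34.0, 35.0, 49.7, 46.5 and 61.5 CPM in OP9 CD8 1 to 5. Nfil3, a factor of NK and innate-like cells, rose by 2.13 ± 0.32, and Klf6, a zinc-finger factor, by 1.38 ± 0.14 on the log2 scale. Tox2, a relative of Tox, had 0.958, 1.42, 0.619, 0 and 0.511 CPM in iRTE 1 to 5, against 83.3, 84.0, 72.3, 85.7 and 78.9 CPM in OP9 CD8 1 to 5, near 0 in each iRTE library. Inhibitory receptors were listed together with the ligands Cd274, Pdcd1lg2 and Cd200, the enzyme Entpd1 and Tox2. Of 12 members tested, 6 rose and 3 fell, the falls being Pdcd1, Tox2 and Cd200. With iRTE 4 and 5 alone in place of all 5, 1 of the list rose, and in limma-voom 3 rose. Pdcd1, which encodes PD-1, had 3.93, 7.19, 2.30, 1.81 and 2.68 CPM in iRTE 1 to 5, against 169, 169, 155, 156 and 179.8 CPM in OP9 CD8 1 to 5 (log2 fold change -5.56 ± 0.34, edgeR adjusted p = 5.42e-11). Cd274, the PD-1 ligand PD-L1, moved the other way, at 17.3 ± 7.21 CPM in iRTE, against 5.33 ± 1.64 CPM in OP9 CD8. Cd160 had 317, 274, 243, 20.1 and 98.1 CPM in iRTE 1 to 5, against 68.3, 72.5, 62.5, 70.5 and 73.5 CPM in OP9 CD8 1 to 5, and Cd244 (2B4) averaged 12.2 ± 12.8 CPM in iRTE, against 0.828 ± 0.599 CPM in OP9 CD8. Both were called higher, yet with iRTE 4 and 5 alone the log2 fold changes were -0.24 and -0.19. Costimulatory receptors rose at 4 of 16 and fell at 4, against 20.0% and 18.7% of all genes tested. Tnfrsf18 (GITR), of the TNF receptor family, had 152, 242, 360.4, 75.0 and 100.4 CPM in iRTE 1 to 5, against 12.4, 13.003, 15.9, 15.6 and 19.3 CPM in OP9 CD8 1 to 5. Cd226 and Icos, which costimulate T cells, rose by 1.92 ± 0.32 and 1.55 ± 0.12 on the log2 scale, and Cd28, the main costimulatory receptor, averaged 33.4 ± 4.88 CPM in iRTE, against 59.7 ± 4.48 CPM in OP9 CD8.

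NK receptors fell at 6 of 15 and rose at 4. At a mean of at least 10 CPM, which tests fewer genes, 2 fell. Klrc1, which encodes NKG2A, had 0, 0.444, 0, 0 and 0 CPM in iRTE 1 to 5, against 18.98, 15.8, 16.4, 15.2 and 19.01 CPM in OP9 CD8 1 to 5. Its neighbour Klrc2 averaged 0.0256 ± 0.0572 CPM in iRTE, against 8.75 ± 1.21 CPM in OP9 CD8. Klra5, a Ly49 receptor, averaged 0.632 ± 0.570 CPM in iRTE, against 11.9 ± 2.72 CPM in OP9 CD8, and reads of these clustered families can be split between copies. Klrd1 (CD94), the partner of the NKG2 chains, rose nonetheless, with 269.8, 245, 255, 135 and 246 CPM in iRTE 1 to 5, against 71.6, 83.7, 78.4, 74.3 and 73.6 CPM in OP9 CD8 1 to 5. Cd7 and Hcst, which encodes the adaptor DAP10, rose by 1.84 ± 0.33 and 1.502 ± 0.26 on the log2 scale. Of the gamma-delta genes, TCR gamma constant genes and Cd163l1 were high in both groups, whose gate excluded the gamma-delta TCR on the surface. Tcrg-C1 had 670.2, 517, 356, 353 and 388 CPM in iRTE 1 to 5, against 1072, 983, 895, 982 and 1076 CPM in OP9 CD8 1 to 5, and Tcrg-C2 averaged 1226 ± 246 CPM in iRTE, against 1044 ± 58.0 CPM in OP9 CD8 and did not pass (edgeR adjusted p = 0.125), but was called higher without iRTE 3 (log2 fold change 0.35) and with iRTE 4 and 5 alone (0.34). Cd163l1, a scavenger receptor of gamma-delta cells, averaged 3598 ± 948 CPM in iRTE, against 1986 ± 115 CPM in OP9 CD8. The splenic libraries averaged 20.8 ± 1.98 CPM for Tcrg-C1 and 105 ± 5.92 CPM for Cd163l1. The CD4+CD8+ libraries averaged 444 ± 123 CPM for Tcrg-C1 and 1599 ± 238 CPM for Cd163l1. Blk, a kinase, averaged 0.191 ± 0.394 CPM in iRTE, against 16.4 ± 3.13 CPM in OP9 CD8. Etv5, a factor of IL-17-producing gamma-delta cells, averaged 0.983 ± 1.39 CPM in iRTE, against 56.4 ± 9.73 CPM in OP9 CD8. Their log2 fold changes were -6.18 ± 0.58 and -5.75 ± 0.85, fitted values that at so few iRTE counts are no bound. That of Blk was -9.16 without iRTE 5, and that of Etv5 -7.27 without iRTE 4. Of the 12 gamma-delta genes listed, 5 were higher and 5 lower. At a mean of at least 10 CPM, 3 were lower.

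Genes that report the strength of TCR signals did not move together, with 5 of 17 higher and 6 lower. The count of rises was 2 in DESeq2, in limma-voom, in the fit of the 2 groups alone and under the replicate block. It was 3 without iRTE 5 and at a mean of at least 10 CPM. Cd5, a negative regulator set by self-recognition, had 13.1, 3.99, 5.75, 10.9 and 7.93 CPM in iRTE 1 to 5, against 56.0, 55.3, 55.9, 56.4 and 57.5 CPM in OP9 CD8 1 to 5. All 5 iRTE libraries were below the OP9 CD8 range. Cd6, its relative, had 6.13, 13.2, 3.27, 1.87 and 0.320 CPM in iRTE 1 to 5, against 76.9, 73.9, 105, 80.3 and 100.001 CPM in OP9 CD8 1 to 5, with iRTE 5 at a trace. Itm2a, a membrane protein induced on positive selection, averaged 16.6 ± 5.31 CPM in iRTE, against 133 ± 13.5 CPM in OP9 CD8. Egr1, an immediate early factor, had 20.0, 18.7, 16.2, 5.17 and 355 CPM in iRTE 1 to 5, against 10.2, 15.04, 13.1, 12.4 and 8.398 CPM in OP9 CD8 1 to 5, so its call rests on iRTE 5, and without it the log2 fold change was 0.34, which did not pass. Rgs1, which damps chemokine receptor signals, had 24.8, 28.8, 34.3, 2.99 and 62.2 CPM in iRTE 1 to 5, against 0.612, 0.431, 0, 0.355 and 0.721 CPM in OP9 CD8 1 to 5, and 7 of 9 Rgs genes rose and 1 fell. Among the CD3 chains and proximal kinases, 19 of 33 rose and 5 fell (8 with iRTE 1 to 3 alone). The falls included the adaptors Sla and Pag1, which restrain TCR signals, and the ubiquitin ligase Cbl, at -1.30 ± 0.11, -1.18 ± 0.32 and -1.05 ± 0.15 on the log2 scale, and Pag1 did not pass with iRTE 4 and 5 alone in place of all 5 (-0.65).

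AP-1 genes rose at 9 of 14 and fell at 0. Jun, a core subunit, had 66.9, 72.4, 52.5, 39.5 and 124 CPM in iRTE 1 to 5, against 3.80, 3.82, 3.67, 2.23 and 2.42 CPM in OP9 CD8 1 to 5, with every iRTE library above 39 CPM and every OP9 CD8 library below 4 CPM (log2 fold change 4.48 ± 0.32, edgeR adjusted p = 1.2e-09). Junb had 109.9, 107, 146, 91.8 and 852 CPM in iRTE 1 to 5, against 53.4, 59.0, 56.7, 62.1 and 64.0 CPM in OP9 CD8 1 to 5. Here iRTE 5 was the outlying library, and the log2 fold change without it was 0.94 in place of 2.15. Fos had 1.72, 1.33, 1.06, 0.436 and 147 CPM in iRTE 1 to 5, against 2.51, 2.83, 2.90, 2.79 and 0.824 CPM in OP9 CD8 1 to 5. It passed the test as higher (log2 fold change 3.68 ± 1.46), but 4 of 5 iRTE libraries lay below the mean of OP9 CD8, and without iRTE 5 the fit called it lower (-1.08 on the log2 scale). With iRTE 1 to 3 alone in place of all 5 it did not pass (-0.79). Its rise is therefore a value of 1 library.

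NF-kB genes rose at 13 of 17 and fell at 1. Nfkb2, a subunit of the alternative pathway, had 85.8, 90.8, 113, 51.0 and 91.9 CPM in iRTE 1 to 5, against 23.9, 20.1, 25.3, 25.4 and 19.5 CPM in OP9 CD8 1 to 5. Its partner Relb averaged 55.6 ± 19.8 CPM in iRTE, against 15.03 ± 3.58 CPM in OP9 CD8. Both were clear of OP9 CD8 in each iRTE library, with iRTE 4 the lowest. Nfkbia, the inhibitor IkappaB-alpha whose promoter is shown above, had 140.4, 130.2, 188, 78.7 and 576 CPM in iRTE 1 to 5, against 63.4, 65.7, 68.0, 70.1 and 60.1 CPM in OP9 CD8 1 to 5. Tnfaip3 (A20) had 55.3, 61.2, 39.4, 38.0 and 425 CPM in iRTE 1 to 5, against 34.2, 25.4, 28.0, 39.4 and 36.2 CPM in OP9 CD8 1 to 5. For these feedback inhibitors iRTE 5 was again far above the rest, and without it the log2 fold changes were 1.04 and 0.57, in place of 1.77 and 1.92. The kappaB motif was found at 2 of 14 genes of this list (14.3%) and at 4.32% of 9398 tested genes. These shares, and those of the motifs below, count genes with a promoter sequence. A gene was counted once, if any of its listed promoters held the motif.

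Interferon-responsive genes were higher in iRTE. Of 34 type I interferon effectors, 28 rose and 0 fell, and the median log2 fold change was 1.41. With iRTE 4 and 5 alone in place of all 5, 18 rose. Their summed level was 3235, 3305, 3534, 1585 and 1809 CPM in iRTE 1 to 5, against 1075 to 1202 CPM in OP9 CD8. All 5 iRTE libraries lay above the OP9 CD8 range, and iRTE 4 and 5 stood well below iRTE 1 to 3. Ifit1, an RNA sensor that blocks viral translation, had 82.5, 103, 72.3, 9.03 and 15.8 CPM in iRTE 1 to 5, against 4.47, 1.66, 1.72, 4.01 and 2.94 CPM in OP9 CD8 1 to 5. Ifi27l2a, an interferon-induced membrane protein gene, had 439, 444, 943, 83.8 and 221 CPM in iRTE 1 to 5, against 21.3, 22.9, 26.2, 28.7 and 29.0 CPM in OP9 CD8 1 to 5. For Ifit1 the log2 fold change was 4.85 with iRTE 1 to 3 and 2.05 with iRTE 4 and 5 alone in place of all 5. Slfn2, a Schlafen gene that keeps T cells at rest, had 938, 1025, 1156, 953 and 714 CPM in iRTE 1 to 5, against 220.3, 249.6, 281, 248 and 259 CPM in OP9 CD8 1 to 5. Interferon-induced GTPases rose at 15 of 18 and fell at 2. Igtp (Irgm3) had 460.4, 477, 394, 177 and 424 CPM in iRTE 1 to 5, against 138, 133, 131, 138 and 142 CPM in OP9 CD8 1 to 5, and Gbp2, a guanylate-binding protein, averaged 234 ± 129.9 CPM in iRTE, against 54.6 ± 5.74 CPM in OP9 CD8. Gbp5, one of the 2 falls, averaged 1.88 ± 0.729 CPM in iRTE, against 5.78 ± 0.822 CPM in OP9 CD8. Reads of these clustered families can be split between copies. The splenic libraries stood higher still for Ifit1 (217 ± 6.003 CPM) and lay near iRTE for Igtp (406 ± 26.1 CPM).

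STATs and interferon regulatory factors rose at 16 of 19 and fell at 1. Irf7, the amplifier of type I interferon, had 81.6, 81.9, 95.8, 26.9 and 7.03 CPM in iRTE 1 to 5, against 16.7, 14.2, 17.6, 13.1 and 16.02 CPM in OP9 CD8 1 to 5, where iRTE 5 fell below OP9 CD8, and with iRTE 4 and 5 alone in place of all 5 it did not pass (0.13 on the log2 scale). Stat4, which carries IL-12 signals, had 273, 325, 282, 256 and 191 CPM in iRTE 1 to 5, against 93.0, 105, 103, 122 and 113 CPM in OP9 CD8 1 to 5 and was higher in each library. Ifngr1, the interferon gamma receptor, averaged 1804 ± 349 CPM in iRTE, against 1074 ± 20.2 CPM in OP9 CD8. The response element was found at 13 of 22 type I effectors with a promoter (59.1%) and at 10 of 11 of the GTPases (90.9%). It was found at 3 of 17 STAT and IRF genes (17.6%), against 8.77% of tested genes with a promoter. Genes with no promoter in the RefSeq table were left out of these shares, and members were counted whether or not they passed. The shares are not a test, since the letters of this element were shortened after matches had been seen.

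MHC class I and its loading machinery rose at 19 of 24 and fell at 1. H2-D1, a classical heavy chain, had 3743, 3659.8, 3553, 2821 and 3613 CPM in iRTE 1 to 5, against 945, 1011, 1082, 1081 and 1144 CPM in OP9 CD8 1 to 5. H2-K1 had 2199.9, 2093, 2161, 1850.0 and 1731 CPM in iRTE 1 to 5, against 653, 682, 719, 707 and 773 CPM in OP9 CD8 1 to 5. B2m, the light chain, had 3251, 2909.9, 3627, 2085 and 1896 CPM in iRTE 1 to 5, against 1115, 1246, 1215, 1247 and 1256 CPM in OP9 CD8 1 to 5. The groups were apart for each of the 3 genes. Tapbp (tapasin), which loads peptides, rose by 1.21 ± 0.23 on the log2 scale. Psmb9, an immunoproteasome subunit, rose by 0.76 ± 0.27 with iRTE 4 below the OP9 CD8 range, and did not pass with iRTE 4 and 5 alone in place of all 5 (0.33 on the log2 scale). The 1 fall was Calr, the chaperone calreticulin, at 974 ± 263 CPM in iRTE, against 1618 ± 72.5 CPM in OP9 CD8. The response element was found at 5 of 20 genes of this list with a promoter (25.0%), B2m among them.

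**Figure D4:**
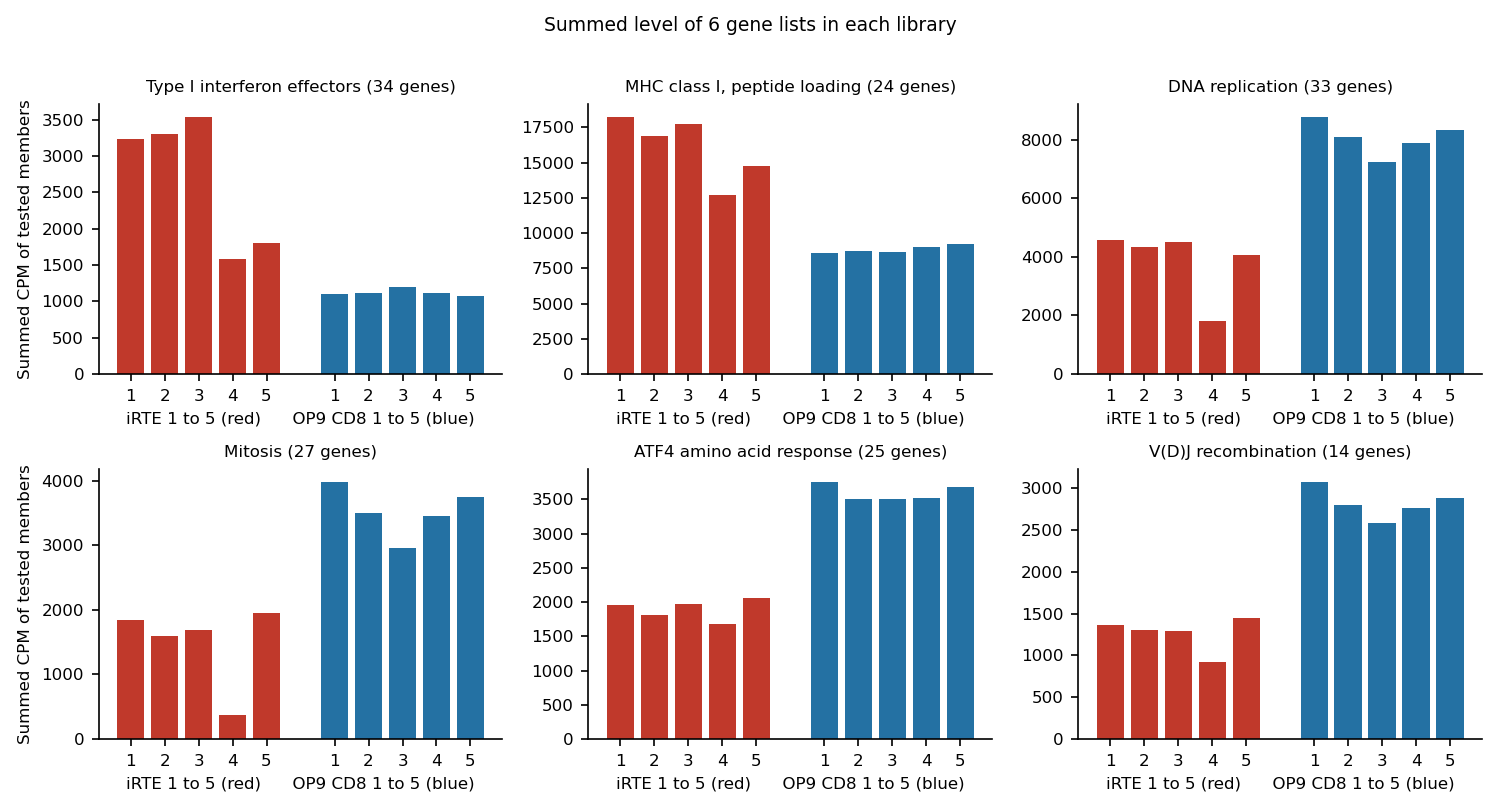
Bars give the summed CPM (y axis, from 0) of the tested members of 6 gene lists in iRTE 1 to 5 (red, left) and OP9 CD8 1 to 5 (blue, right). Interferon effectors and MHC class I are higher in all 5 iRTE libraries, and replication, mitosis, amino acid response and recombination genes lower, with iRTE 4 lowest for mitosis at 370.3 CPM. The recombination sum is led by Hmgb1 and Hmgb2.

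Genes of DNA replication were lower, with 31 of 33 down, 0 up and a median log2 fold change of -1.02. Their sum was 4562, 4335, 4505, 1805 and 4058 CPM in iRTE 1 to 5, against 7245 to 8774 CPM in OP9 CD8. Rrm1, a subunit of the enzyme that makes deoxynucleotides, had 353, 259, 247, 72.3 and 189 CPM in iRTE 1 to 5, against 779.5, 727, 666, 652 and 771 CPM in OP9 CD8 1 to 5. Mcm10, which activates the replicative helicase, averaged 22.7 ± 10.9 CPM in iRTE, against 84.4 ± 13.8 CPM in OP9 CD8. Cdc6, which loads it, averaged 33.2 ± 16.8 CPM in iRTE, against 112 ± 6.42 CPM in OP9 CD8. Mitosis genes fell at 23 of 27 and rose at 0. Ccnb1, the mitotic cyclin B1, had 88.7, 62.3, 61.9, 10.9 and 66.4 CPM in iRTE 1 to 5, against 250.1, 255, 192, 207 and 247 CPM in OP9 CD8 1 to 5. Its 4 libraries other than iRTE 4 lay close together, and iRTE 4 was lower again. Mki67, a proliferation antigen, had 35.1, 41.9, 51.3, 5.91 and 147 CPM in iRTE 1 to 5, against 105, 101, 109, 106 and 108 CPM in OP9 CD8 1 to 5 and did not pass (edgeR adjusted p = 0.121), and iRTE 5 lay above the OP9 CD8 range. Without iRTE 5 it was called lower (log2 fold change -1.66), as it was with iRTE 1 to 3 alone in place of all 5 (-1.30), in limma-voom and under the replicate block. Replication-dependent histones fell at 7 of 21 and rose at 1, for example Hist1h1b at 17.6 ± 9.01 CPM in iRTE, against 86.0 ± 16.2 CPM in OP9 CD8, and reads of histone copies can be split. In limma-voom 11 of the histones fell.

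Genes that restrain division moved the other way. Of 14 quiescence genes, 8 rose and 1 fell. Ypel3 had 175, 211, 232, 256 and 349 CPM in iRTE 1 to 5, against 64.7, 62.5, 82.3, 72.1 and 87.5 CPM in OP9 CD8 1 to 5. Tsc22d3 (GILZ), a glucocorticoid-induced gene, and Txnip, an arrestin that limits glucose uptake, rose by 0.96 ± 0.18 and 1.14 ± 0.31 on the log2 scale, with iRTE 5 lowest in both. Cdkn1b, the inhibitor p27, rose by 0.77 ± 0.15 on the log2 scale. Ccnd2, the D-type cyclin of lymphocytes, also rose, with 656, 670.1, 1080.1, 448 and 487 CPM in iRTE 1 to 5, against 185, 216, 201, 212 and 192 CPM in OP9 CD8 1 to 5, so cell cycle genes did not all move one way. Among DNA methylation and Polycomb genes, 9 of 20 fell and 2 rose. The 2 methyltransferases of Polycomb moved apart, Ezh2 at 52.6 ± 19.8 CPM in iRTE, against 132 ± 14.7 CPM in OP9 CD8 and Ezh1 at 97.6 ± 22.3 CPM in iRTE, against 48.8 ± 9.01 CPM in OP9 CD8. Uhrf1, which copies DNA methylation at replication, fell by 1.56 on the log2 scale.

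Amino acid response genes, the targets of the factor ATF4, fell at 17 of 25 and rose at 1, with a median log2 fold change of -0.75. Asns, which makes asparagine, had 4.98, 13.9, 16.4, 5.91 and 24.0 CPM in iRTE 1 to 5, against 218, 210.1, 202, 219.5 and 225 CPM in OP9 CD8 1 to 5. Chac1, which degrades glutathione, had 0, 0, 0, 0 and 0.320 CPM in iRTE 1 to 5, against 10.04, 7.76, 7.22, 6.24 and 9.48 CPM in OP9 CD8 1 to 5 and was close to 0 in iRTE. Psat1, of serine synthesis, had 113, 101, 70.0, 22.7 and 106 CPM in iRTE 1 to 5, against 392.02, 361, 307, 352 and 363 CPM in OP9 CD8 1 to 5. Slc7a5, a large neutral amino acid transporter, averaged 114 ± 20.7 CPM in iRTE, against 391 ± 26.1 CPM in OP9 CD8. In each of these the groups did not overlap. The motif TGATGNAA was found at 6 of 23 genes of this list with a promoter (26.1%), the 2 shown above among them. It was found at 5 of 22 tRNA synthetases (22.7%) and at 2.79% of tested genes with a promoter. The tRNA synthetases fell at 13 of 30 and rose at 3. Aars averaged 203 ± 30.3 CPM in iRTE, against 395 ± 32.1 CPM in OP9 CD8, and Wars, the tryptophan enzyme that interferon induces, rose by 0.55 ± 0.17, and did not pass with iRTE 4 and 5 alone in place of all 5 (0.19 on the log2 scale).

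Endoplasmic reticulum chaperones fell at 8 of 20 and rose at 2. Falls numbered 4 with iRTE 4 and 5 alone in place of all 5. They numbered 5 without iRTE 3 and without OP9 CD8 1. Edem1, which sends misfolded proteins to degradation, had 772, 746, 560.0, 447 and 652 CPM in iRTE 1 to 5, against 1467, 1318, 1442, 1354 and 1285 CPM in OP9 CD8 1 to 5, and Hyou1, an Hsp70-like chaperone, averaged 87.6 ± 6.30 CPM in iRTE, against 177 ± 26.8 CPM in OP9 CD8. Xbp1, the main factor of the unfolded protein response, rose by 0.57 ± 0.18 on the log2 scale. Cholesterol synthesis genes fell at 12 of 25 and rose at 2. Idi1, an isomerase of the pathway, had 24.8, 21.2, 18.3, 2.37 and 25.8 CPM in iRTE 1 to 5, against 67.0, 66.2, 56.8, 55.7 and 54.6 CPM in OP9 CD8 1 to 5, with iRTE 4 lowest. Beside 20.0% higher and 18.7% lower over all genes tested, glycolysis genes rose at 5 of 24 (20.8%) and fell at 7 (29.2%). Nuclear genes of the respiratory chain rose at 6 of 35 (17.1%) and fell at 1 (2.9%). Both counts of rises were 0 with iRTE 4 and 5 alone in place of all 5, and for the respiratory chain 17 rose with iRTE 1 to 3 alone and 12 without iRTE 4. Glycolysis rises numbered 3 with no expression filter and without OP9 CD8 2, OP9 CD8 4 or iRTE 3. Its falls numbered 4 in the fit of the 2 groups alone. Of 12 mitochondrial-encoded genes, 0 passed in edgeR or DESeq2, and 0 had an unadjusted p under 0.05. With iRTE 4 and 5 alone in place of all 5 11 of the 12 were lower, and with iRTE 1 to 3 alone 2 were higher. Their sum was 5831 to 16578 CPM in iRTE and 9912 to 13049 CPM in OP9 CD8. Slc16a3, a lactate exporter, and Vegfa, a growth factor induced by low oxygen, changed by -2.83 ± 0.75 and -3.40 ± 0.46, while Pdk1, another such target, rose by 0.96 ± 0.13 on the log2 scale. Tfrc, the transferrin receptor that takes up iron, had 131, 137, 72.2, 106 and 335 CPM in iRTE 1 to 5, against 832, 749, 752, 641 and 575 CPM in OP9 CD8 1 to 5. Osgin1, a target of the redox factor Nrf2, had 33.5, 31.1, 40.9, 4.30 and 34.5 CPM in iRTE 1 to 5, against 0.612, 0.986, 1.48, 0 and 0.876 CPM in OP9 CD8 1 to 5.

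Survival genes changed in both directions. Of 14 Bcl2 family genes, 5 rose and 4 fell. Mcl1 and Bcl2, which protect T cells, rose by 0.69 ± 0.09 and 0.46 ± 0.15, and Bcl2l11 (Bim), which kills them, rose by 1.01 ± 0.27 on the log2 scale and did not pass with iRTE 4 and 5 alone in place of all 5 (0.36). Bid and Pmaip1 (Noxa), also killers, changed by -1.10 ± 0.21 and -1.39 ± 0.30 on the log2 scale. Of 18 p53 targets, 9 fell and 2 rose, with Trp53inp1 at 294 ± 99.0 CPM in iRTE, against 643 ± 84.2 CPM in OP9 CD8. Purine pathway genes rose at 8 of 15 and fell at 3, and Ada, adenosine deaminase, was among the falls (-1.89 ± 0.45 on the log2 scale). Purine pathway rises numbered 4 in the fit of the 2 groups alone. They numbered 5 with iRTE 4 and 5 alone in place of all 5, without OP9 CD8 4 and without iRTE 2. S100 proteins, galectins and annexins rose at 10 of 16 and fell at 1. S100a4, a calcium-binding protein of motile cells, had 832, 538, 679, 258 and 337 CPM in iRTE 1 to 5, against 65.9, 78.3, 65.4, 78.6 and 93.7 CPM in OP9 CD8 1 to 5, and S100a11 averaged 467 ± 181 CPM in iRTE, against 121 ± 8.59 CPM in OP9 CD8. Anxa2 was the 1 fall, at 94.9 ± 55.9 CPM in iRTE, against 397 ± 39.9 CPM in OP9 CD8.

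Some of the largest changes lay outside these programmes. Fgl2, a secreted fibrinogen-like protein with immunosuppressive activity, had 375, 334, 173, 42.0 and 179 CPM in iRTE 1 to 5, against 3.98, 2.28, 1.77, 3.30 and 4.02 CPM in OP9 CD8 1 to 5 (log2 fold change 6.16 ± 0.60, edgeR adjusted p = 1.75e-08). Igj, the joining chain of antibodies, had 2508, 1829, 1117, 1968 and 3989 CPM in iRTE 1 to 5, against 293, 394, 416, 351 and 336 CPM in OP9 CD8 1 to 5, and splenic cells averaged 1.15 ± 1.36 CPM. Qpct, which forms pyroglutamate, had 82.0, 58.2, 70.6, 24.7 and 7.29 CPM in iRTE 1 to 5, against 0.551, 1.48, 0.887, 2.79 and 0.876 CPM in OP9 CD8 1 to 5. Among the falls, Mzb1, a chaperone of B cells, had 0, 0.266, 0.707, 0.872 and 0.384 CPM in iRTE 1 to 5, against 98.0, 96.1, 78.8, 94.5 and 102 CPM in OP9 CD8 1 to 5. H19, an imprinted RNA of fetal tissues, had 0, 0.0887, 0, 0.872 and 0 CPM in iRTE 1 to 5, against 43.9, 45.5, 38.5, 46.6 and 40.2 CPM in OP9 CD8 1 to 5, and of 11 imprinted genes it was the 1 fall, beside 3 rises. Slc22a3, a cation transporter, averaged 0.358 ± 0.456 CPM in iRTE, against 58.4 ± 4.40 CPM in OP9 CD8, and Gldc, which cleaves glycine, 0.277 ± 0.395 CPM in iRTE, against 48.6 ± 9.16 CPM in OP9 CD8. Esm1, a secreted proteoglycan, had no count in iRTE, at least 52.7-fold lower. Tubb3, a tubulin best known from neurons, had the smallest adjusted p of all genes and was picked after its values were seen. It averaged 1.57 ± 0.288 CPM in iRTE, against 120.1 ± 6.02 CPM in OP9 CD8 (log2 fold change -6.26 ± 0.11, edgeR adjusted p = 8.89e-15).

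**Figure D5:**
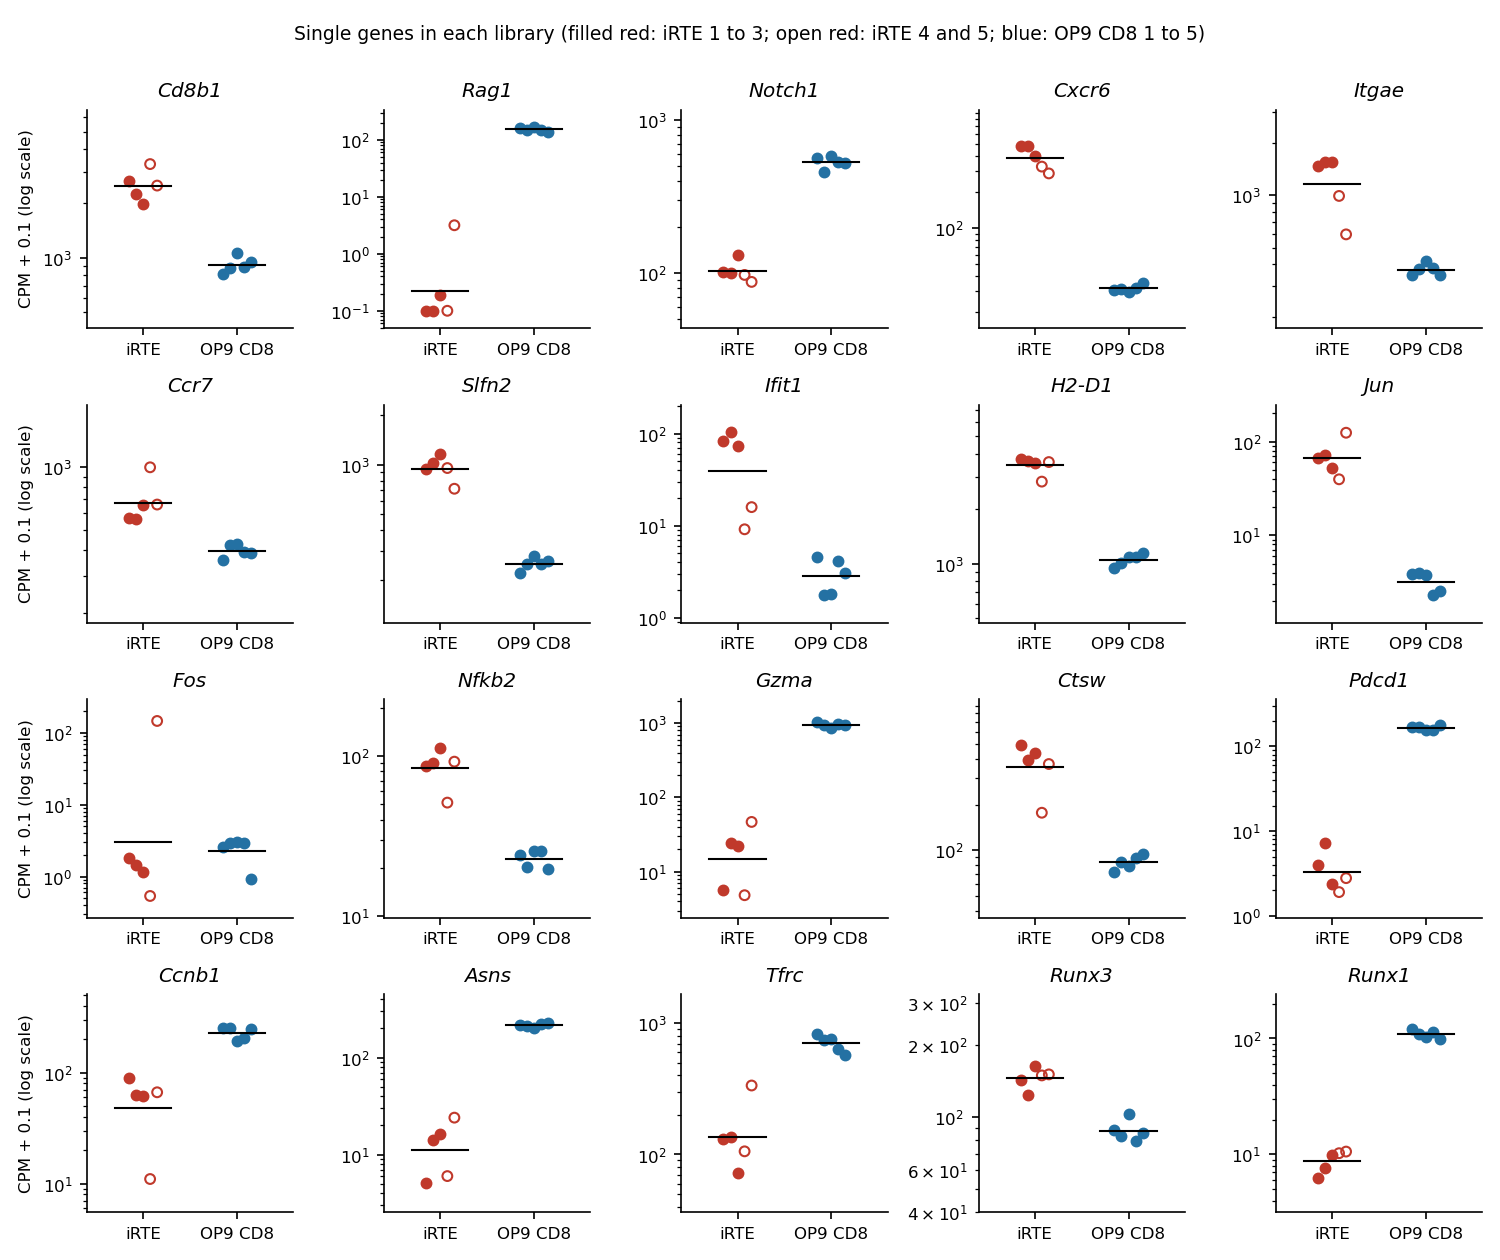
Points give the level of 20 genes in each library (y axis, CPM + 0.1 on a log scale) for iRTE (left, filled for iRTE 1 to 3 and open for iRTE 4 and 5) and OP9 CD8 (right), with lines at the geometric means. The groups are apart in 19 of the 20 panels, and in that of Fos 1 open point, iRTE 5 at 147 CPM, lies far above all the others.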

How the data were processed

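RNA from 18 mouse libraries in 4 groups was sequenced, and the authors deposited 1 table of raw read counts per gene symbol for each library. The counts were made with STAR 2.4.2 and Subread on build mm9, per the submitters' processing notes, after read groups were added and duplicates marked, per the file headers. The strand setting was not given in the sources used here, nor was the annotation release, so reads of near-identical or overlapping genes can be split or joined. A deposited log-scale table of the same libraries was not used.

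Genes were filtered by edgeR 4.0.16 (R 4.3.3) with its default filter by group, which left 13922 of 43280, and scaled by TMM. The contrast iRTE minus OP9 CD8 was tested by edgeR's quasi-likelihood F test in a fit of all 18 libraries, without a replicate block, with Benjamini-Hochberg adjustment over all genes tested and a threshold of 0.05. SEs come from log2 CPM with a prior count of 2. A share of TCR segments was compared by an exact two-sided permutation test, whose smallest p for 5 against 5 libraries is 0.00794. On counts simulated for this comparison over 13922 genes, with 200 changed, 60% of 2-fold and 82% of 4-fold changes were recovered and 5.33% of calls were false.

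Members, gene lists and tests were chosen with earlier results of these data known. Genes named are the 15 largest rises and falls without overlap and at 10 CPM or more in the higher group, the 10 largest rises and falls in mean CPM, members of the 65 lists by size of change (at 5 CPM or more), by adjusted p or by level, and a preset set of key genes. Of these only some are printed, and Tubb3 was added after its values were seen. Alternatives were RLE scaling, no filter or a mean of at least 10 CPM, DESeq2 1.42.0, limma-voom (limma 3.58.1), a fit of the 2 groups alone, the replicate block, either set of iRTE libraries alone, and leaving out each library. Promoter sequences are from RefSeq (GRCm38.p6), a build other than that of the counts, and no coordinate of the counts was used.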

Additional observations from a re-analysis of the deposited data

Results flagged for a closer look

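In 54 cases among the genes named in the text, 1 library of a group of 5 lay far from its fellows: its gap to the nearest of them, on log2 CPM, was above 0.71 of the group's whole range. Chance alone gives this in about 1 in 20 groups. Where all other libraries of the group were at 0, as for Klrc1, Klrc2 and Chac1 in iRTE, any count met the rule. The 1 in 20 does not cover such genes. Of these, 18 were in iRTE 4 and 15 in iRTE 5, against 1 in iRTE 1, 1 in iRTE 2 and 4 in iRTE 3, and 3, 2, 4, 1 and 5 in OP9 CD8 1 to 5. The cause was not tested.

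The low values of iRTE 4 were Ccnb1 at 10.9 CPM (others 61.9 to 88.7), Cd8a at 456 CPM (others 1261 to 1384), Cdc6 at 3.61 CPM (others 38.1 to 45.4) and Ctsw at 177 CPM (others 371 to 494). Also low in iRTE 4 were Ezh2 at 19.9 CPM (others 52.6 to 71.4), Gimap7 at 28.8 CPM (others 112 to 159.8), Gzmb at 6.85 CPM (others 92.9 to 226) and H2-D1 at 2821 CPM (others 3553 to 3743). Lower than the rest in iRTE 4 were Idi1 at 2.37 CPM (others 18.3 to 25.8), Igtp at 177 CPM (others 394 to 477), Klrd1 at 135 CPM (others 245 to 269.8) and Ly6a at 187 CPM (others 594 to 846). Low as well in iRTE 4 were Mcm10 at 4.86 CPM (others 21.6 to 32.8), Nfil3 at 16.001 CPM (others 42.6 to 52.97), Osgin1 at 4.30 CPM (others 31.1 to 40.9) and Psmb9 at 72.2 CPM (others 164 to 213). The high values of iRTE 4 were Ccr7 at 998 CPM (others 562 to 661) and H19 at 0.872 CPM (others 0 to 0.0887).

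The low values of iRTE 5 were Ccl5 at 27.6 CPM (others 96.4 to 127), Gimap3 at 353 CPM (others 468 to 500.5), Il7r at 124.8 CPM (others 256 to 336) and Tsc22d3 at 143 CPM (others 238 to 287). Also low in iRTE 5 was Txnip at 236 CPM (others 576 to 719). The high values of iRTE 5 were Blk at 0.895 CPM (others 0 to 0.0623), Cd28 at 42.1 CPM (others 30.8 to 31.9), Chac1 at 0.320 CPM (others 0) and Fos at 147 CPM (others 0.436 to 1.72). Also high in iRTE 5 were Junb at 852 CPM (others 91.8 to 146), Klf6 at 539 CPM (others 325 to 369.8), Klrc2 at 0.128 CPM (others 0) and Myc at 824 CPM (others 296 to 342). High as well in iRTE 5 were Rag1 at 3.07 CPM (others 0 to 0.0884) and Tnfaip3 at 425 CPM (others 38.0 to 61.2).

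iRTE 1 stood apart for Sox4 at 1.82 CPM (low, others 9.32 to 14.5). iRTE 2 stood apart for Klrc1 at 0.444 CPM (high, others 0). iRTE 3 stood apart for Calr at 526 CPM (low, others 1023 to 1222), Ezr at 308 CPM (low, others 391 to 423), Gata1 at 85.9 CPM (high, others 60.2 to 64.5) and Tcrg-C2 at 789 CPM (low, others 1301 to 1388). OP9 CD8 1 stood apart for B2m at 1115 CPM (low, others 1215 to 1256), Cd69 at 24.4 CPM (high, others 16.5 to 17.9) and Epcam at 29.6 CPM (low, others 36.3 to 39.2). OP9 CD8 2 stood apart for Cd226 at 19.3 CPM (high, others 12.2 to 13.6) and Polm at 9.06 CPM (low, others 15.7 to 18.5). OP9 CD8 3 stood apart for Ccr9 at 315 CPM (high, others 269 to 278), Mzb1 at 78.8 CPM (low, others 94.5 to 102), Sox4 at 105 CPM (high, others 96.7 to 98.7) and Xbp1 at 272 CPM (low, others 322 to 344). OP9 CD8 4 stood apart for Il9r at 15.02 CPM (low, others 18.6 to 20.1). OP9 CD8 5 stood apart for Cd28 at 52.0 CPM (low, others 60.2 to 62.9), Cd8a at 643 CPM (high, others 562 to 584), Fos at 0.824 CPM (low, others 2.51 to 2.90), Pag1 at 79.2 CPM (low, others 117 to 135) and Xcl1 at 1.44 CPM (high, others 0 to 0.122).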

How the results depend on the processing

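Genes higher and lower in iRTE numbered 2788 and 2598. The lowest and highest counts on leaving out 1 library were 2449 and 3009 for higher genes and 2258 and 3002 for lower genes, and for changes of at least 2-fold 866 and 1023 higher and 1310 and 1600 lower. The other settings kept the counts within 1.5 times, apart from a mean of at least 10 CPM, which tests fewer genes and left 575 higher and 755 lower by at least 2-fold. The fit of the 2 groups alone called 2102 higher and 1819 lower, DESeq2 2819 and 2890, iRTE 1 to 3 alone 3158 and 3372, and iRTE 4 and 5 alone 2495 and 2448. Replicate numbers were not used to pair libraries in the main fit. Deviations of same-numbered libraries correlated at -0.054 to 0.001, which cannot show that they shared no culture. The replicate block gave 2520 higher and 2624 lower. The difference in the share of the most counted TCR alpha segment, 19.45 points, ran from 10.41 to 25.03 on leaving out 1 library and was 31.79 with iRTE 1 to 3 alone and 0.92 with iRTE 4 and 5 alone.

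Of 194 named genes that passed, 179 kept their call under each of the 19 settings in which they were tested. The call was kept by 192 under all 10 settings that left out 1 library. It was kept by 193 with iRTE 1 to 3 alone and by 182 with iRTE 4 and 5 alone. Itgb1, Ets1, Socs2 and Uhrf1 were left out of this tally. With iRTE 4 and 5 alone the log2 fold change turned to -0.24 for Cd160, -0.19 for Cd244, -0.017 for Cd3e and -0.027 for Xcl1. That of Fos was -0.79 with iRTE 1 to 3 alone and, on leaving out 1 library, ran from -1.08 without iRTE 5 to 4.00 without iRTE 4. The cause was not tested. Of 56 list counts of at least 5 genes, 10 moved by over 1.5 times with iRTE 4 and 5 alone, 7 in the fit of 2 groups and at most 4 under any other setting. Limits are the spread between iRTE libraries, the 2 naming styles among them, sums over whole sorted samples, and totals per library that leave genes near 1 CPM with few counts.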

Other observations

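Genes of cell-surface sialic acid differed in both directions. Of 18 sialyltransferases and sialomucins, 2 were higher and 7 lower in iRTE. Selplg, which encodes PSGL-1, the ligand of P-selectin, averaged 2065 ± 240.4 CPM in iRTE, against 942 ± 86.1 CPM in OP9 CD8. Podxl, an anti-adhesive sialomucin of blood progenitors, had 14.5, 26.5, 33.3, 29.6 and 7.61 CPM in iRTE 1 to 5, against 108, 97.4, 86.9, 84.1 and 103.8 CPM in OP9 CD8 1 to 5. No library overlapped between the groups for either gene. St6gal1, which caps N-glycans with sialic acid, averaged 73.0 ± 27.5 CPM in iRTE, against 114 ± 14.99 CPM in OP9 CD8, and did not pass with iRTE 4 and 5 alone in place of all 5 (log2 fold change -0.69). The count of falls was 4 with iRTE and OP9 CD8 as the only groups in the fit.

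Targets of low oxygen moved apart from each other. Of 16, 6 were higher and 3 lower in iRTE. Bnip3l, a receptor for removal of mitochondria, had 255, 271, 254, 261 and 257 CPM in iRTE 1 to 5, against 149, 161, 155, 141 and 155 CPM in OP9 CD8 1 to 5, with the groups apart. P4ha1, a collagen prolyl hydroxylase, averaged 85.8 ± 23.9 CPM in iRTE, against 42.4 ± 6.08 CPM in OP9 CD8, while its relative P4ha2 averaged 2.53 ± 1.30 CPM in iRTE, against 10.2 ± 2.07 CPM in OP9 CD8. With iRTE 4 and 5 alone in place of all 5, 3 of the list were higher.

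Of 14 phosphatases that switch off MAP kinases, 4 were higher and 2 lower in iRTE, against 20.0% and 18.7% of all genes tested. Dusp6, which acts on ERK, had 14.6, 8.16, 1.41, 7.04 and 85.0 CPM in iRTE 1 to 5, against 3.73, 2.34, 4.97, 2.49 and 2.99 CPM in OP9 CD8 1 to 5. Dusp4, a nuclear relative, had 0.479, 0.532, 0, 0 and 2.81 CPM in iRTE 1 to 5, against 23.1, 15.96, 13.96, 19.3 and 24.6 CPM in OP9 CD8 1 to 5. Dusp4 was below every OP9 CD8 library in each iRTE library, whereas iRTE 5 was far above the rest for Dusp6 and iRTE 3 lay below the OP9 CD8 range. Without iRTE 5 the log2 fold change of Dusp6 was 1.24. Among D cyclins, their kinases, inhibitors and E2F factors, 4 of 24 were higher and 8 lower. With iRTE 4 and 5 alone in place of all 5, 13 were lower. Cdk4, the kinase partner of D cyclins, averaged 316 ± 101 CPM in iRTE, against 531 ± 32.2 CPM in OP9 CD8, and E2f3, an activating E2F factor, averaged 10.8 ± 2.93 CPM in iRTE, against 27.6 ± 4.39 CPM in OP9 CD8.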
